A study of Mus musculus with 6 samples.

Results

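The semaphorin, Slit, netrin and reelin guidance genes are secreted or membrane-bound cues, their receptors and the adaptor Dab1. They were chosen by gene symbol: Sema, Slit, Robo or Nrp followed by a digit, any symbol starting with Plxn, Ntn or Unc5, and Reln, Dab1, Vldlr, Lrp8 and Dcc. The rule gave 56 of the 18193 genes named on the array, covered by 133 of its 45037 probe sets. No expression value enters the rule itself, but the members, Reln among them, were chosen with earlier results of these data known. Each gene is represented by its brightest probe set (highest mean over 6 arrays), and both Reln probe sets are given. For 3 of the 56 the symbol alone brought them in: Unc50, which encodes a Golgi membrane protein, Unc5cl, a death-domain protein, and the antisense transcript Plxna4os1.

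RNA from pancreatic islets was measured on 6 one-colour Affymetrix arrays, 3 per group, from mice aged 8 weeks on a mixed SV 129/C57BL/6 background. The 3 arrays labelled knockout came from Pdx1Cre;PPARbetafl/fl mice, in which a Pdx1-driven Cre recombinase acts on floxed alleles of Ppard, the gene of the nuclear receptor PPAR beta. The 3 control arrays came from littermates with the same floxed alleles (PPARbetafl/fl) and no Cre, so both groups carry the floxed gene. The Pdx1 promoter is active throughout the developing pancreas, and there were 0 arrays with Cre on intact Ppard, so the deletion and Cre itself cannot be told apart. The question was which guidance transcripts differ between islets of Cre-positive mice and islets of their Cre-negative littermates.

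Guidance cues were first described in growing axons, where they attract or repel the growth cone, and the same molecules act in vessels, epithelia and immune cells. Reelin is a large secreted protein that binds the lipoprotein receptors VLDLR and ApoER2 (encoded by Lrp8), and receptor clustering leads to phosphorylation of the adaptor Dab1. Semaphorins signal through plexins, with neuropilins as co-receptors for most secreted class 3 semaphorins. Slits bind Robo receptors. Netrins bind DCC, which mostly mediates attraction, and UNC5 receptors, which mediate repulsion. In mouse islets, Robo receptors are known to take part in the sorting of endocrine cell types into mantle and core.

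Array medians lay between 5.39 and 5.49 on the log2 scale. Arrays correlated at r = 0.991 to 0.993 among those labelled knockout, 0.981 to 0.991 among controls and 0.978 to 0.987 across groups, over all probe sets. Ppard, the floxed gene, had no lower level in Cre-positive islets. It stood at 8.01, 8.20 and 7.70 in arrays labelled knockout 1 to 3, against 7.75, 7.56 and 7.12 in controls 1 to 3 (difference 0.49 ± 0.20, SE, adjusted p = 0.377). A second Ppard probe set stood at 5.97, 5.84 and 5.73 in arrays labelled knockout, against 5.57, 5.47 and 5.47 in controls, without overlap (0.35 ± 0.11, SE, adjusted p = 0.255). Which exon is removed is not given in the labels, and a probe set on remaining exons cannot check the deletion. The genotypes are taken from the labels alone.

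The preparations differed in content. The mean level of 28 acinar markers was 8.05, 5.39 and 5.56 in arrays labelled knockout 1 to 3, against 6.41, 10.28 and 10.44 in controls 1 to 3, so controls 2 and 3 held the most exocrine RNA (exact permutation p = 0.2, two-sided). Markers of alpha cells averaged 8.84 ± 0.03 in arrays labelled knockout and 9.38 ± 0.09 in controls (SD, n = 3 each), with 5 of 5 means lower, and those of delta, PP and epsilon cells 10.03 ± 0.02 and 10.56 ± 0.10, with 8 of 8 means lower. Both lists separated the groups (exact permutation p = 0.1, two-sided, the smallest 3 arrays against 3 allow). The labels call the samples beta cells, but whole islets were isolated, and markers of the other islet cell types were bright. Beta cell markers averaged 11.67 ± 0.16 in arrays labelled knockout and 11.90 ± 0.14 in controls. In bulk islet RNA, fewer cells of a type and less RNA per cell cannot be told apart. For many of the genes below the difference is therefore also given with the acinar level as a covariate, or against control 1 alone, the control with the fewest acinar transcripts (its spread is then assumed to be that of the other arrays).

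**Figure D1:**
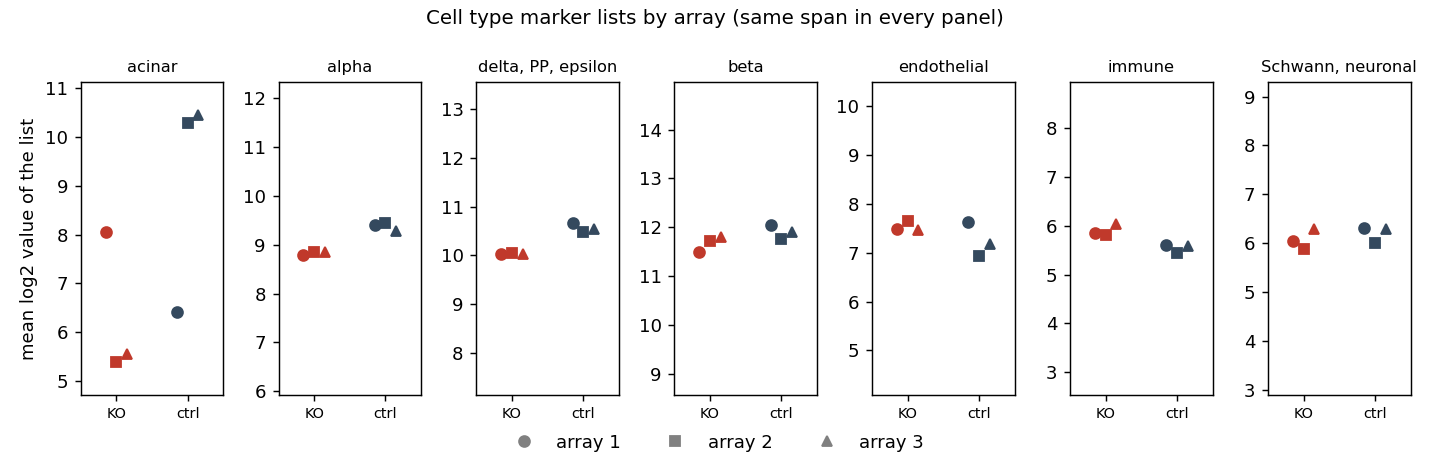
Mean log2 value (y axis, the same span in every panel) of 7 cell type marker lists in each array, with arrays labelled knockout (KO) left of controls (ctrl). Points are single arrays, and marker shape gives the array number within its group. Acinar markers spread over several units within each group, whereas alpha and delta, PP and epsilon markers were lower in all 3 arrays labelled knockout than in all 3 controls.

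Of the 56 guidance genes, 1 passed adjusted p 0.05 over all probe sets, the reelin gene Reln, which fell. That is 1.79% of the genes, against 1.1% of all genes (0.852% higher, 0.247% lower). The arrays of the groups did not overlap for 13 guidance genes, 23.2% against 21.2% of all genes, with 9 of the 13 lower (16.1%, against 9.06% of all genes) and 4 higher (7.14%, against 12.1%) in arrays labelled knockout. The share in either direction lies near the background, while the split leans to lower values on these brightest probe sets. At an unadjusted p under 0.05 there were 13 guidance genes, or 23.2%, against 14.0% of all genes. The median difference, arrays labelled knockout minus controls, was -0.10 for the guidance genes and 0.0020 for all genes, and 37 of the 56 had lower means (66.1%, against 49.6% of all genes) and 19 higher ones (33.9%, against 50.4%). A change of at least 1.5-fold in either direction was seen in 9 of the 56 (16.1%, against 6.68%). Over all 133 probe sets of the family, 1 passed (0.752%, against 0.999% of probe sets with a single symbol) and 25 did not overlap (18.8%, against 20.4%). Of these 25, 14 were lower and 11 higher, a more even split. Lower means were seen in 57.1% of the 133 and a change of at least 1.5-fold in 10.5%. The matching shares over all probe sets are not given here. After centring each array on its median 33 of the 56 guidance genes had lower means (58.9%, against 38.9% of all genes). Sema4d then joined Reln past the threshold, giving 1 higher and 1 lower (3.57% of the guidance genes, against 1.18% of all genes).

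**Figure D2:**
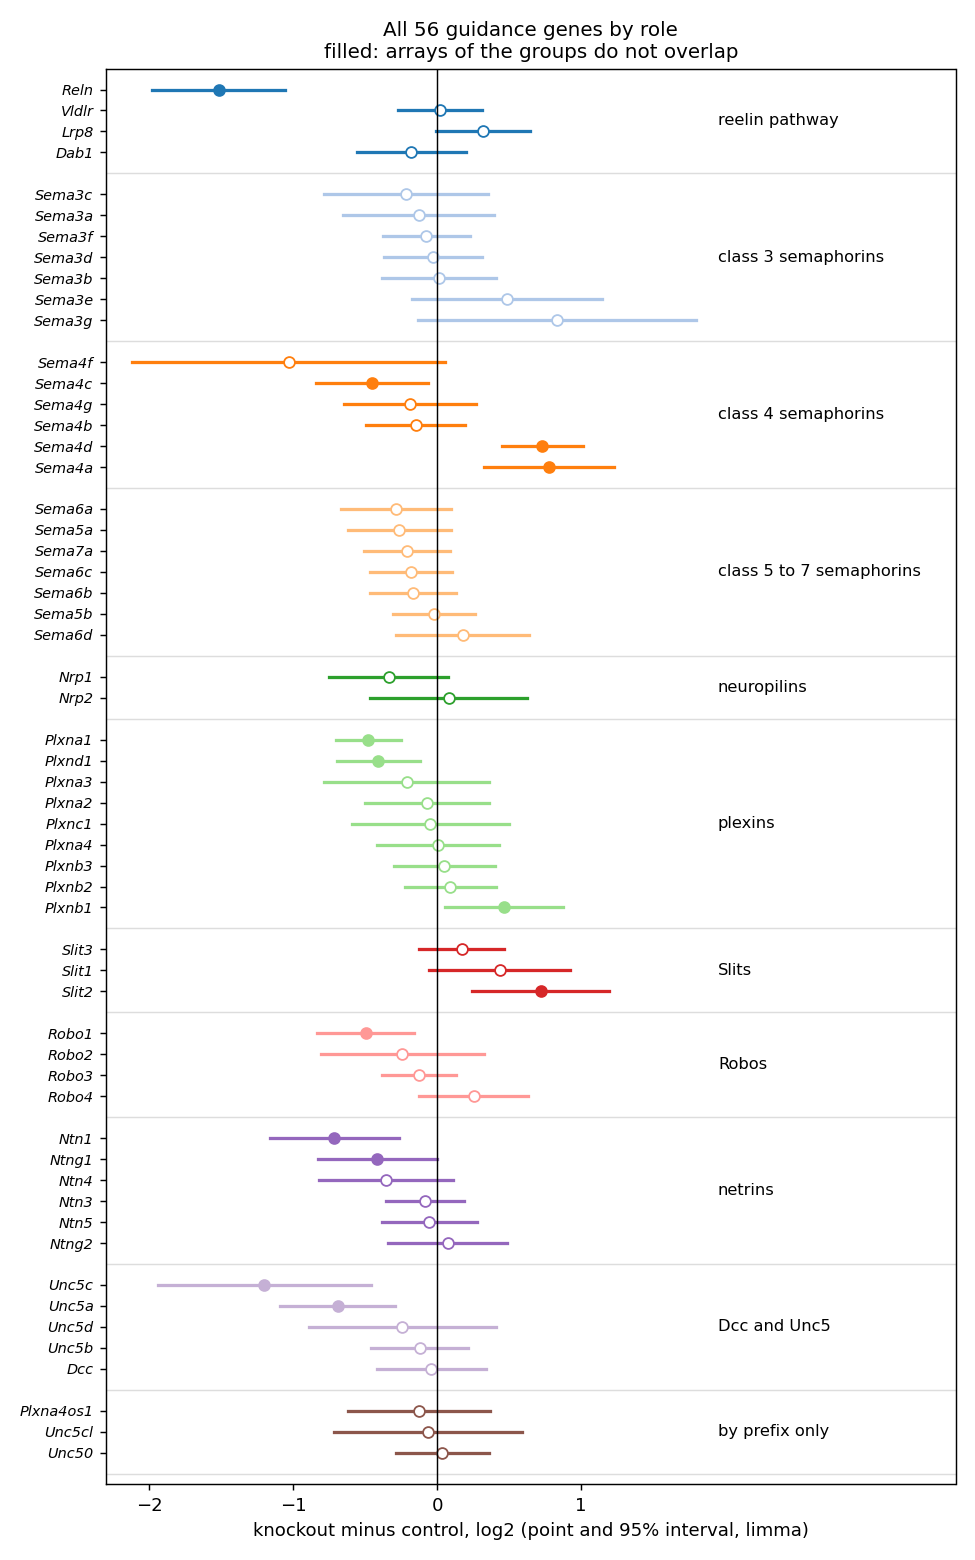
Difference between arrays labelled knockout and controls (x axis, log2) for all 56 guidance genes, grouped by role, with limma's 95% interval. Filled points mark the 13 genes whose arrays did not overlap between the groups. Reln lies furthest to the left, the 4 Unc5 receptors lie left of 0, and the 3 Slits lie right of it.

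Promoters are shown for 4 of the genes whose arrays did not overlap and for which RefSeq gives a single start, to set genes of either direction side by side: Reln, Unc5c and Unc5a, with lower means in arrays labelled knockout, and Plxnb1, with a higher one. The windows run from 250 bases before to 50 after the start (RefSeq, mouse build GRCm38.p6). They are chr5:22344656-22344955 on the minus strand for Reln, chr3:141465314-141465613 on the plus strand for Unc5c, chr13:54949161-54949460 on the plus strand for Unc5a and chr9:109095186-109095485 on the plus strand for Plxnb1. Capitals mark the Sp1 box GGGCGG on either strand.
Reln: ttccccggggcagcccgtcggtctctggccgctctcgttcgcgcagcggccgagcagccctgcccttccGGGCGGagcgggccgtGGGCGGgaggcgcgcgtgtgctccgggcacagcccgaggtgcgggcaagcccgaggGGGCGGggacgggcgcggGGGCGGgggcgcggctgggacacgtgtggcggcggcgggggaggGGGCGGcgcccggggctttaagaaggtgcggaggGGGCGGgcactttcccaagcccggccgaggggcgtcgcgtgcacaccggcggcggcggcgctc
Unc5c: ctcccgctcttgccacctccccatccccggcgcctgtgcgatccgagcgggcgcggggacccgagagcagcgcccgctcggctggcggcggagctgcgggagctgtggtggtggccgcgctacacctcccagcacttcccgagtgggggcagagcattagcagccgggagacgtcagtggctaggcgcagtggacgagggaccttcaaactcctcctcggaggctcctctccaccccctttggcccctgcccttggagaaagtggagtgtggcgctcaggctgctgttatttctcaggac
Unc5a: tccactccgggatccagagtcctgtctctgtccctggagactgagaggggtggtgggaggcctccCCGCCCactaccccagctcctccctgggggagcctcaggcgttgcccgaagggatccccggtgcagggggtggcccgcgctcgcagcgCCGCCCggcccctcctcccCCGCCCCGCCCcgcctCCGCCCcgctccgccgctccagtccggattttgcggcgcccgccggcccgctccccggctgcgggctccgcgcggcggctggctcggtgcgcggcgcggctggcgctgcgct
Plxnb1: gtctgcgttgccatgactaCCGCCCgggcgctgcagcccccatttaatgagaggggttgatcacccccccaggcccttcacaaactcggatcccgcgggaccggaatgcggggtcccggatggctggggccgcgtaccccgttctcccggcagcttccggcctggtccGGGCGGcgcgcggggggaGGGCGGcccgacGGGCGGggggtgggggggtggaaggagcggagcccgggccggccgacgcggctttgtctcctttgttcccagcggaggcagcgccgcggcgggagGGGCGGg

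The Reln window held 6 Sp1 boxes and 47 CpG dinucleotides, and 1.44% of all 32851 RefSeq windows held as many CpGs. Unc5a held 5 boxes, 2 of them sharing a base, and 37 CpGs. Plxnb1 held 5 boxes and 36 CpGs, and Unc5c held 0 boxes and 24 CpGs. A GGGCGG box on either strand was found in 35.7% of all windows and in 40 of the 63 windows (63.5%) of the 46 guidance genes that have one. These 63 windows also held more CpGs, with a median of 17 against 7 over all windows, and the box itself contains a CpG. The part of CpG content in the share with a box was not tested. The element that PPAR and its partner RXR bind, 2 copies of AGGTCA on the same strand with 1 base between them, searched on both strands, was found in 0.0396% of all windows and in 0 of these 63. Its core AGGTCA was in 16.3% of all windows and in 11 of the 63, among them windows of Sema4d, Plxnd1 and Lrp8 and none of the 4 printed. These matches describe letters in a short window and say nothing about binding.

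Reln fell in arrays labelled knockout. It stood at 3.59, 3.89 and 3.41 in arrays labelled knockout 1 to 3, against 4.80, 5.28 and 5.37 in controls 1 to 3. Every array labelled knockout lay below every control, with a wide gap between the nearest arrays. The group means were 3.63 ± 0.25 and 5.15 ± 0.31 (SD, n = 3 each), a difference of -1.52 ± 0.20 (SE, 95% interval -1.98 to -1.06), or 2.87-fold lower (limma, adjusted p = 0.0227). All 6 values lie under the median probe set of the array (5.42), and how far they stand above background is not given in the deposited values. The second Reln probe set was dimmer still, at 2.81, 2.61 and 2.65 in arrays labelled knockout and 2.56, 2.69 and 2.78 in controls, and differed by 0.014 ± 0.115 (SE, adjusted p = 0.974). The fall thus rests on 1 probe set.

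The call on Reln was lost in most other fits. Averaging both probe sets gave -0.75, short of the threshold (adjusted p = 0.0674). With single arrays left out it passed in 1 of 6 fits, the one without control 1 (adjusted p = 0.0112), and the difference stayed between -1.70 and -1.41 in all 6. The other adjusted p values were 0.110 without knockout 1, 0.0544 without knockout 2, 0.0869 without knockout 3, 0.0800 without control 2 and 0.104 without control 3. With the acinar level as a covariate the difference was -1.29 ± 0.24 (SE, adjusted p = 0.164), and against control 1 alone it was -1.17 ± 0.23 (adjusted p = 0.177). Control 1 had the lowest Reln value of the controls and still stood above all 3 arrays labelled knockout. The alpha and the delta, PP and epsilon marker means were lower in the same 3 arrays, by 0.55 and 0.53 on the log2 scale, and their part in the Reln difference was not tested.

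The receptors and the adaptor of reelin had overlapping groups on their brightest probe sets and did not pass the threshold. Vldlr stood at 11.18, 11.15 and 10.86 in arrays labelled knockout 1 to 3, against 11.08, 11.05 and 10.99 in controls 1 to 3. The groups overlapped throughout, with a difference of 0.020 ± 0.123 (SE, 95% interval -0.27 to 0.31, adjusted p = 0.968). The sign of so small a difference turned in several fits, and across the 6 Vldlr probe sets the differences ran from -0.019 to 0.30.

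Lrp8 stood at 8.48, 8.70 and 8.83 in arrays labelled knockout 1 to 3, against 8.5, 8.21 and 8.35 in controls 1 to 3. Only knockout 1 lay within the control range, and the difference of 0.32 ± 0.14 (SE) did not pass (adjusted p = 0.400). All 3 Lrp8 probe sets had higher means in arrays labelled knockout, by 0.32 to 0.50, and on 1 of them the groups did not overlap. With the acinar covariate the Lrp8 difference was 0.13, and against control 1 alone 0.17. Dab1 had log2 values of 4.17, 4.44 and 4.42 in arrays labelled knockout and 4.23, 4.64 and 4.70 in controls, a dim signal with overlapping groups (-0.18 ± 0.16, SE, adjusted p = 0.699). Against control 1 alone the Dab1 difference was 0.11. The 5 Dab1 probe sets split into 3 with higher and 2 with lower means.

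**Figure D3:**
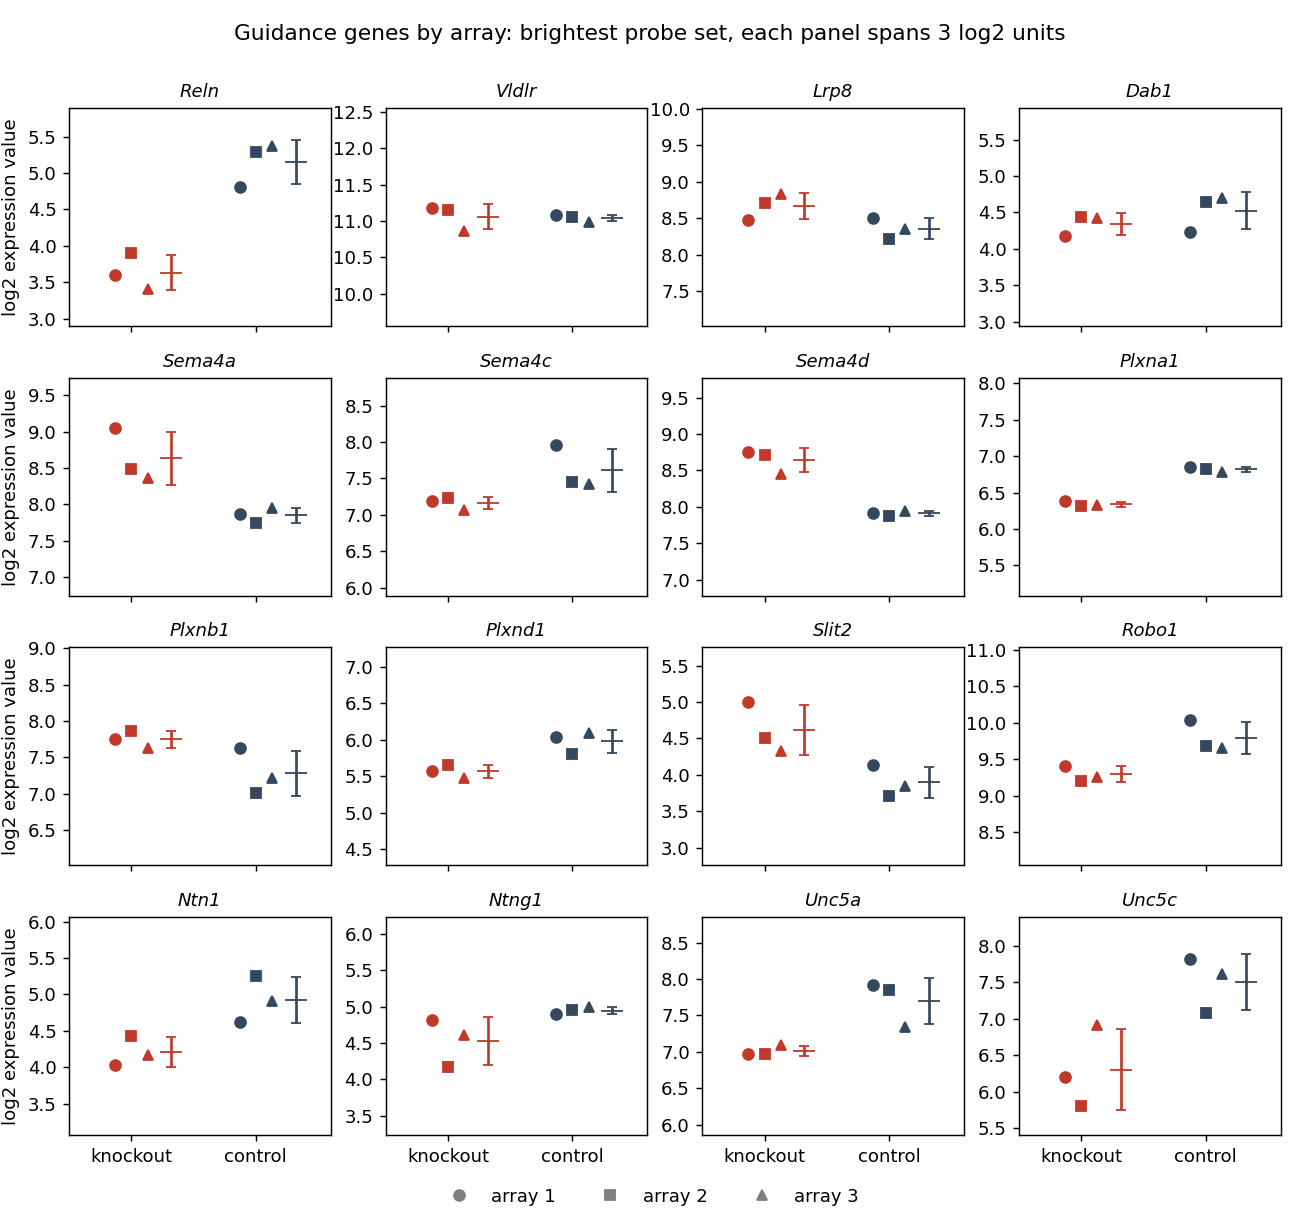
Log2 expression values (y axis, each panel spanning 3 units) of 16 guidance genes by array, with arrays labelled knockout left of controls. Points are arrays, and the bars beside them are the mean ± SD of 3. Reln separates widely, Sema4d and Plxna1 separate with little spread within the groups, and Vldlr, Lrp8 and Dab1 overlap.

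Among 20 semaphorins 0 passed the test (limma), and 14 had lower means in arrays labelled knockout. An unadjusted p under 0.05 was seen for 3 of the 20 (limma, against 14.0% of all genes). Arrays did not overlap for 3 of the 20 (15%, against 21.2% of all genes), Sema4d and Sema4a with higher and Sema4c with lower means. Class 4 semaphorins are membrane-anchored and best known from immune cells and epithelia. Sema4d, the ligand of plexin-B1, stood at 8.75, 8.72 and 8.45 in arrays labelled knockout 1 to 3, against 7.92, 7.87 and 7.94 in controls 1 to 3. The controls lay close together and well below every array labelled knockout. The difference was 0.73 ± 0.12 (SE, 1.66-fold), just short of the threshold (adjusted p = 0.0523). Against control 1 alone it was 0.72 (adjusted p = 0.249), and fitting the acinar level gave 0.77 (0.233). Of 14 alternatives it passed in 3, after median centring (adjusted p = 0.0436), among probe sets with a mean of at least 5 (0.0328) and with an intensity trend in the variance (0.0233). With 1 array left out the adjusted p ran from 0.0655 to 0.203, and with the mean of its probe sets the difference was 0.39 (0.136). Its other probe sets, both dimmer, differed by 0.39 and 0.063.

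Sema4a, another class 4 member that acts on T cells, had values of 9.05, 8.48 and 8.37 in arrays labelled knockout 1 to 3, against 7.87, 7.74 and 7.95 in controls 1 to 3. The groups did not overlap, and the difference of 0.78 ± 0.19 (SE, 1.71-fold) did not pass (adjusted p = 0.152). The second Sema4a probe set gave almost the same difference, 0.77 ± 0.19 (SE), again without overlap. Immune markers were also higher in arrays labelled knockout, with a list mean of 5.90 ± 0.12 against 5.55 ± 0.09 in controls (SD, n = 3 each) and 10 of 13 means higher (exact permutation p = 0.1, two-sided). Whether these immune genes and the class 4 semaphorins come from the same cells was not tested.

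Sema4c, the ligand of plexin-B2, had lower values in arrays labelled knockout, at 7.18, 7.23 and 7.06, against 7.96, 7.46 and 7.42 in controls (-0.45 ± 0.17, SE, adjusted p = 0.324). The gap depended on control 1: it was -0.28 without that array, -0.80 against it alone and -0.69 with the acinar covariate. Sema4f stood at 5.80, 5.67 and 5.44 in arrays labelled knockout, against 6.60, 5.70 and 7.71 in controls, the widest control spread of all guidance genes (-1.03 ± 0.46, SE, adjusted p = 0.408). Control 3 set much of that mean, and without it the difference was the smallest of the leave-out fits, -0.51. Sema4b and Sema4g differed by -0.15 and -0.19, with overlapping groups, and Sema4g by 0.065 against control 1 alone.

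Class 3 semaphorins, the secreted ones, had overlapping groups in 7 of 7 cases on their brightest probe sets. Sema3g, which is known from endothelium, stood at 6.33, 6.25 and 6.04 in arrays labelled knockout 1 to 3, against 6.40, 4.74 and 4.99 in controls 1 to 3. Control 1 lay with the arrays labelled knockout, and controls 2 and 3 lay apart. The difference of 0.83 ± 0.41 (SE, adjusted p = 0.459) therefore changed with the control used: leaving out control 1 gave 1.34 (adjusted p = 0.0158), keeping control 1 alone gave -0.19, and the acinar covariate gave 0.15. The 14 endothelial markers were likewise lowest in controls 2 and 3, with a list mean of 7.49, 7.64 and 7.47 in arrays labelled knockout, against 7.63, 6.94 and 7.18 in controls (exact permutation p = 0.3, two-sided). Their part in the Sema3g values was not tested.

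Sema3e, the ligand of plexin-D1, had higher means on all 4 of its probe sets, by 0.25 to 0.51, and on 1 of them the groups did not overlap. On the brightest it stood at 6.68, 6.72 and 7.46 in arrays labelled knockout, against 6.92, 6.13 and 6.36 in controls, which overlap (adjusted p = 0.527). The other class 3 genes, Sema3a, Sema3b, Sema3c, Sema3d and Sema3f, differed by -0.22 to 0.010 on their brightest probe sets. Of 3 Sema3f probe sets, 2 had lower means and 1 a higher mean, by 0.28 and without overlap. The 2 Sema3c probe sets differed by -0.22 and 0.20.

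Differences in classes 5 to 7 were small on the brightest probe sets. There the 7 genes differed by -0.29 (Sema6a) to 0.18 (Sema6d), with overlapping groups in each. Sema6d turned sign with the acinar covariate (-0.10) and against control 1 alone (-0.24). All 3 Sema6a probe sets had lower means, by 0.29 to 0.65 on the log2 scale, and on 1 of them the groups did not overlap. The GPI-anchored Sema7a stood at 8.08, 8.27 and 8.22 in arrays labelled knockout, against 8.55, 8.22 and 8.44 in controls (-0.21 ± 0.13, SE, adjusted p = 0.543). Sema5a and Sema5b, the class with thrombospondin repeats, differed by -0.26 and -0.021 on dim probe sets, and Sema5b changed sign under the scalings tried.

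Of 9 plexins, the semaphorin receptors, 0 passed (limma), and 3 had an unadjusted p under 0.05 (against 14.0% of all genes). Plxna1, a partner of neuropilins in class 3 signalling, was the steadiest of them within the groups. It stood at 6.38, 6.31 and 6.33 in arrays labelled knockout, against 6.85, 6.82 and 6.78 in controls. The difference of -0.48 ± 0.10 (SE, 1.39-fold lower) was far larger than the SD of either group, and missed the threshold over all probe sets (adjusted p = 0.0924). It passed only among probe sets with a mean of at least 5 (adjusted p = 0.0486), and its second, dimmer probe set differed by -0.083.

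Plxnb1, the receptor of Sema4d, had values of 7.75, 7.86 and 7.63 in arrays labelled knockout, against 7.62, 7.01 and 7.21 in controls. The nearest arrays were almost level, and the difference was 0.47 ± 0.17 (SE, adjusted p = 0.333). Its second probe set differed by 0.42 ± 0.13 (SE), also without overlap. Control 1 again lay closest to the arrays labelled knockout: the brightest probe set differed by 0.22 with the acinar covariate and by 0.12 against control 1 alone.

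Plxnd1, the receptor of Sema3e and a vascular plexin, stood at 5.57, 5.66 and 5.48 in arrays labelled knockout, against 6.04, 5.80 and 6.09 in controls (-0.41 ± 0.12, SE, adjusted p = 0.228). The remaining plexins differed by -0.21 (Plxna3) to 0.091 (Plxnb2), and Plxna4 by 0.0039 ± 0.179 (SE). The neuropilins, co-receptors that also bind VEGF, had overlapping groups. Nrp1 stood at 7.43, 7.76 and 7.48 in arrays labelled knockout, against 8.22, 7.66 and 7.82 in controls, a difference of -0.34. It was -0.18 without control 1, -0.66 against control 1 alone and -0.63 with the acinar covariate. Nrp2 differed by 0.078, and by -0.31 against control 1 alone.

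**Figure D4:**
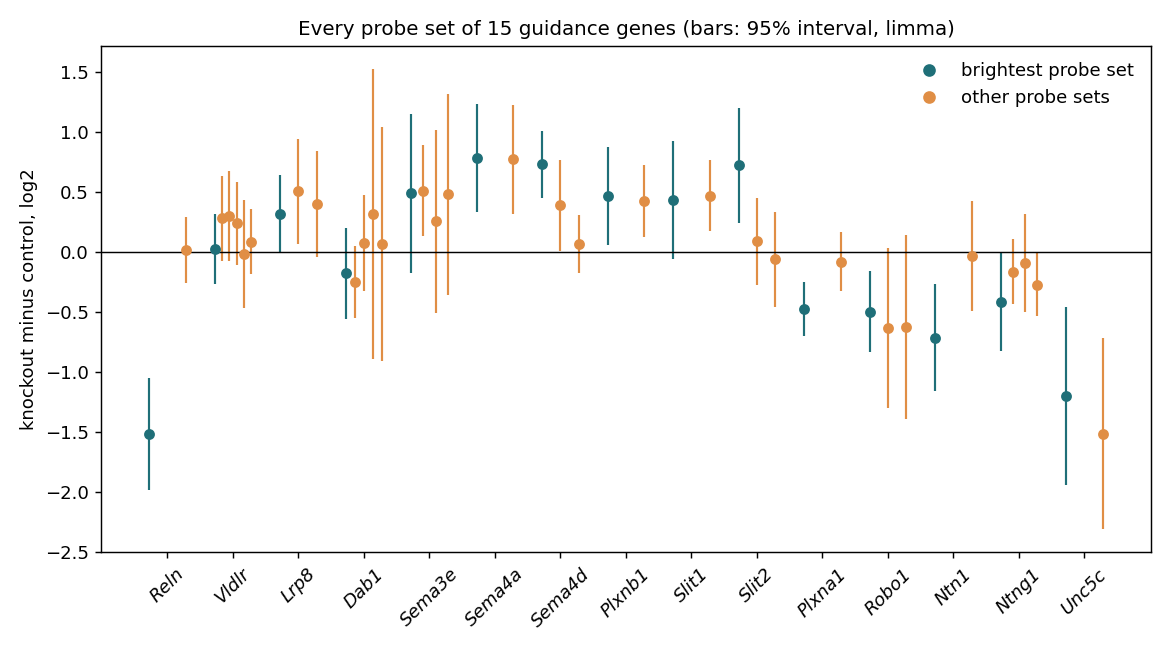
Difference between arrays labelled knockout and controls (y axis, log2) for every probe set of 15 guidance genes, with limma's 95% interval. The brightest probe set of each gene is set apart by colour. The probe sets of Sema4a, Plxnb1, Slit1 and Unc5c lie close together, whereas the Reln, Slit2, Ntn1 and Plxna1 differences appear on 1 probe set and not on the others.

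The 3 Slit genes, ligands of the Robo receptors, all had higher means in arrays labelled knockout, under each of the 3 scalings. Of these genes 0 passed (limma), and 1 had an unadjusted p under 0.05 (against 14.0% of all genes). Slit2 stood at 5.0, 4.51 and 4.33 in arrays labelled knockout, against 4.14, 3.71 and 3.84 in controls. The groups did not overlap, and the difference was 0.72 ± 0.20 (SE, 1.65-fold, adjusted p = 0.204). Both of its other probe sets were dim and differed by 0.085 and -0.065. With the arrays against control 1 alone, Slit2 differed by 0.48.

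Slit1 stood at 6.01, 6.22 and 6.56 in arrays labelled knockout, against 5.73, 5.57 and 6.19 in controls (0.43 ± 0.21, SE, adjusted p = 0.446). Its second probe set had a similar difference, 0.47 ± 0.12 (SE), without overlap between the groups. Slit3 differed by 0.17, and by 0.032 against control 1 alone.

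Robo1, a Slit receptor, had a lower mean in arrays labelled knockout. It stood at 9.41, 9.20 and 9.26 in arrays labelled knockout, against 10.04, 9.68 and 9.65 in controls. The groups did not overlap, and the difference of -0.50 ± 0.14 (SE, 1.41-fold lower) did not pass (adjusted p = 0.212). Its other probe sets differed by -0.64 and -0.63, with overlap. The Robo1 difference was -0.37 without control 1 and -0.75 against control 1 alone.

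Robo2 stood at 6.86, 6.62 and 6.60 in arrays labelled knockout, against 6.39, 7.13 and 7.29 in controls. Control 1 was the lowest of the 6 arrays and controls 2 and 3 the highest, so the difference of -0.24 was -0.51 without control 1, -0.066 without control 3, 0.30 against control 1 alone and 0.23 with the acinar covariate. Robo3 differed by -0.13 on a dim probe set, and Robo4, an endothelial Robo that is also in the endothelial marker list, by 0.25.

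Of 6 netrins, 4 Unc5 receptors and Dcc, 0 passed (limma), and 4 had an unadjusted p under 0.05 (against 14.0% of all genes). Ntn1, the classical netrin, stood at 4.03, 4.43 and 4.17 in arrays labelled knockout, against 4.62, 5.25 and 4.91 in controls. The arrays did not overlap on this dim probe set (-0.72 ± 0.19, SE, 1.64-fold lower, adjusted p = 0.181), and its other probe set differed by -0.037. Against control 1 alone Ntn1 differed by -0.41.

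Unc5c, a repulsive netrin receptor, had the second largest difference of the guidance genes. Its brightest probe set stood at 6.19, 5.80 and 6.91 in arrays labelled knockout, against 7.82, 7.07 and 7.62 in controls. The groups did not overlap, but knockout 3 came close to control 2, and the difference of -1.20 ± 0.31 (SE, 2.30-fold lower) did not pass (adjusted p = 0.175). The second Unc5c probe set differed by -1.52 ± 0.34 (SE, 2.86-fold lower, adjusted p = 0.119), at 4.78, 5.04 and 5.41 in arrays labelled knockout and 7.31, 5.99 and 6.47 in controls. Both probe sets therefore placed all 3 arrays labelled knockout below all 3 controls. The brightest differed by -1.46 with the acinar covariate and by -0.95 without knockout 2.

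Unc5a stood at 6.97, 6.97 and 7.09 in arrays labelled knockout, against 7.92, 7.85 and 7.34 in controls. Its arrays labelled knockout lay close together and below each control (-0.69 ± 0.17, SE, 1.62-fold lower, adjusted p = 0.152), and the difference was -0.58 without control 1 and -0.91 against control 1 alone. Unc5b and Unc5d differed by -0.12 and -0.24 with overlap, so 4 of 4 Unc5 receptors had lower means on their brightest probe sets, under each of the 3 scalings. The second Unc5b probe set differed by 0.026. Unc5d was dim, at 2.21, 2.51 and 2.26 in arrays labelled knockout, against 3.17, 2.50 and 2.03 in controls. Dcc, the attractive receptor, stood at 6.45, 6.00 and 6.50 in arrays labelled knockout, against 6.37, 6.25 and 6.47 in controls (-0.043 ± 0.160, SE, 95% interval -0.42 to 0.34), and its sign turned after median centring. Ntng1, a membrane-anchored netrin-G that binds its own receptors and not DCC, differed by -0.42 ± 0.17 (SE, adjusted p = 0.381), without overlap, and by -0.24 with the acinar covariate. All 4 of its probe sets had lower means. Ntn3, Ntn4, Ntn5 and Ntng2 differed by -0.35 (Ntn4) to 0.073 (Ntng2).

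**Figure D5:**
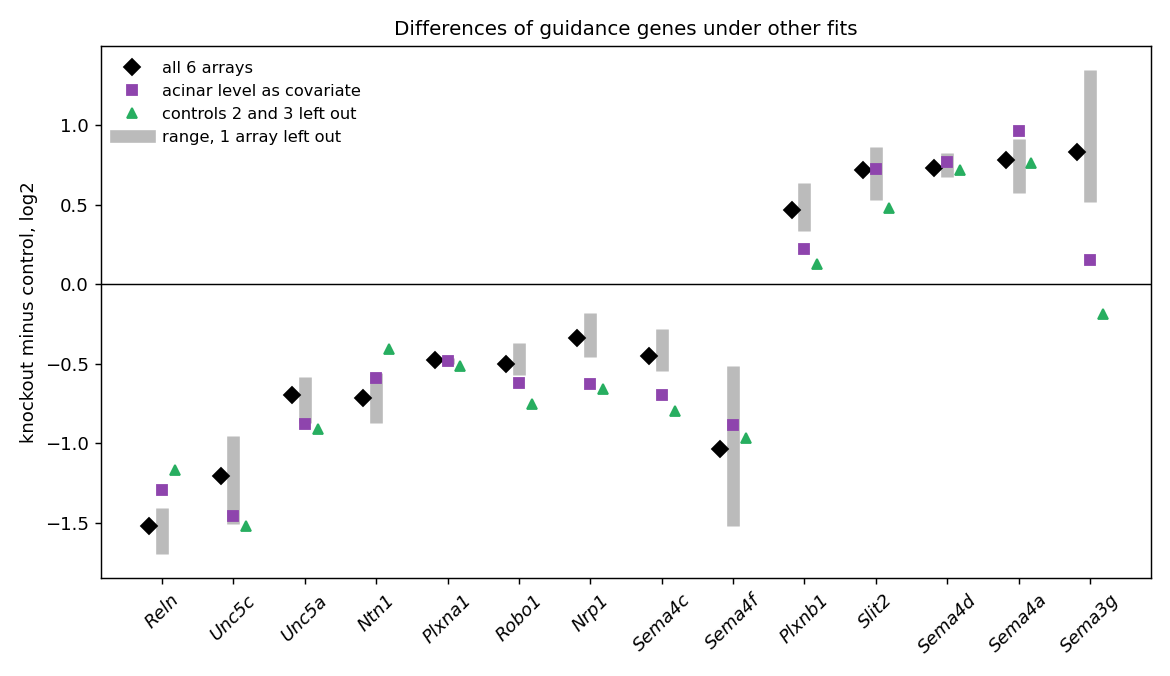
Difference between arrays labelled knockout and controls (y axis, log2) for 14 guidance genes with all 6 arrays, with the acinar marker level as covariate, and with controls 2 and 3 left out, which keeps control 1 as the lone control. Grey bars span the 6 fits that leave out 1 array. Reln, Unc5c, Unc5a, Plxna1, Sema4d and Sema4a keep their side and much of their size, whereas Plxnb1 shrinks and Sema3g crosses 0.

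The partners of these receptors had small median differences, given below by list, against 0.0020 for all genes. Of 95 measured genes in 4 lists, 0 passed (limma, against 1.1% of all genes), and 8 had an unadjusted p under 0.05 (against 14.0%). Arrays did not overlap for 6 of 25 genes in the reelin list and 5 of 32 in the semaphorin list. The Slit and Robo list had 4 of 18 and the netrin list 2 of 20, against 21.2% of all genes. In the reelin list 0 of 25 passed, with 13 higher and 12 lower means and a median difference of 0.018. It held the 3 genes Clu (-0.86 ± 0.18, SE, adjusted p = 0.101), which encodes clusterin, a ligand of the reelin receptors, Adamts4 (0.78 ± 0.17, 0.119), a matrix protease that can cut reelin, and the kinase gene Src (0.39 ± 0.17, 0.396). Clu stood at 11.96, 11.90 and 11.96 in arrays labelled knockout, against 12.41, 13.07 and 12.92 in controls, with no overlap.

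In the semaphorin effector list 0 of 32 passed, with a median difference of 0.054. L1cam, an adhesion molecule in the class 3 semaphorin receptor complex, stood at 5.47, 5.41 and 5.55 in arrays labelled knockout, against 6.02, 6.03 and 5.97 in controls (-0.53 ± 0.10, SE, adjusted p = 0.0763). The plexin-associated oxidase gene Mical3 differed by 0.59 ± 0.12 (SE, adjusted p = 0.105) and Cd72, a lymphocyte receptor of Sema4d, by -0.40 ± 0.16 (SE). The Slit and Robo effector list had 0 of 18 past the test and a median difference of 0.083, led by Srgap3 (-0.52), Arhgap39 (-0.30) and Nck2 (0.40). The netrin list had 0 of 20 and a median of 0.044, led by Dock1 (-0.47), Pitpna (0.28) and Ablim1 (0.33).

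Within the groups the guidance genes varied somewhat more than genes at large. Their median SD over 3 arrays was 0.18 in arrays labelled knockout and 0.21 in controls, against 0.14 and 0.16 for all genes. Of the 56, 22 had a mean under log2 5, below the median probe set of the array. Probe sets of the same gene agreed in sign for 25 of the 41 guidance genes that have more than 1. Of the 10 non-overlapping genes with more than 1 probe set, 8 had all probe sets on the same side, and 3 (Sema4a, Plxnb1 and Unc5c) had no overlap on any.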

How the data were processed

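The deposited table holds log2 expression values per probe set, which the authors made with RMA, per the submitters' processing notes (version and background setting are not given in the sources used here). Of 45101 probe sets, 64 control probe sets were left out. The platform annotation gave 34945 of the other 45037 a single symbol, 932 several and 9160 none, and genes were named only from the first kind. The test was limma's lmFit and eBayes (version 3.58.1, R 4.3.3), two-sided, with group as the only term. Benjamini-Hochberg adjustment ran over the 45037 probe sets, and every adjusted p in the text is limma's. An adjusted p under 0.05 is called past the threshold. Differences are arrays labelled knockout minus controls.

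The members, the gene lists and the alternatives were chosen with earlier results of these data known. Named were Reln, Vldlr, Lrp8, Dab1, Dcc, members past the threshold, the 16 smallest p, the smallest and largest p of each family, the 3 smallest p of each effector list and Ppard; other members are named with their ranges. Of 100 effector list entries, 5 had no probe set of their own. Marker lists for duct, lymphatic, fibroblast, Schwann and neuronal, erythrocyte and adipocyte cells differed by 0.14, 0.080, 0.11, -0.13, -0.093 and 0.37. The last, with 3 measured markers, separated the groups, as did the 2 measured erythrocyte markers (exact permutation p = 0.1, two-sided). The erythrocyte markers were dim, at 3.66 in arrays labelled knockout and 3.75 in controls. Single markers past the threshold were 1 of 8 for duct and 1 of 13 for immune cells, both higher. Lower ones were 2 of 8 for delta, PP and epsilon cells and 1 of 9 for beta cells, against 1.1% of all genes in either direction. The fit was tested on simulated data. Alternatives were median centring, renewed quantile normalization, a mean log2 value of at least 5, a variance trend, the mean of a gene's probe sets, a replicate block, the acinar level as covariate, leaving out controls 2 and 3, and leaving out each array. The number of arrays limits the precision.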

Additional observations from a re-analysis of the deposited data

How the results depend on the processing

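The guidance genes past the threshold numbered 1 with all arrays. After median centring they numbered 2 (Reln and Sema4d, 3.57% against 1.18% of all genes). With a mean log2 value of at least 5, which kept 34 of the 56, they numbered 2 (Plxna1 and Sema4d, 5.88% against 2.44%). Reln itself lay below that floor. With a variance trend 2 guidance genes passed (Reln and Sema4d, 3.57% against 2.67%), and after renewed quantile normalization 1 (1.79% against 1.25%). With 1 array left out 0 to 2 passed, against 0.423% to 1.84% of all genes. Averaging the probe sets of a gene left 0 past the threshold (limma, against 1.17% of all genes), and so did the acinar covariate (0.341%). There 16 and 13 guidance genes had an unadjusted p under 0.05, with no share over all genes given for these fits. Reln then differed by -0.75 (adjusted p = 0.0674) and -1.29 (0.164). Without controls 2 and 3 Reln differed by -1.17, and with 1 array left out by -1.70 to -1.41. The titles give replicate numbers and name no pairing of mice. Deviations of same-numbered arrays correlated at -0.054, 0.14 and 0.0045, and those of differently numbered arrays at -0.13 to 0.10. With 3 arrays per group these values cannot settle whether the numbers pair the mice. With the replicate block 0 guidance genes passed (limma), against 0.676% of all genes. In that fit 14 had an unadjusted p under 0.05, with no share over all genes given. Reln then differed by -1.52 (adjusted p = 0.0518). Calls over all genes ran from 62 to 486 over the fits that kept more than 1 control. The median guidance difference, -0.10 with all arrays, was -0.19 without controls 2 and 3, -0.051 after centring, -0.054 with probe sets averaged, and -0.16 (without knockout 3) to -0.047 (without control 1) with 1 array left out. Of the effector lists, 1 gene passed with the floor of 5 (L1cam), 1 with a variance trend (Clu), and 0 to 1 with 1 array left out (Clu, without control 1). The erythrocyte marker difference was -0.040 after centring. Marker differences turned sign for duct (-0.037 without control 1), lymphatic (-0.024 without control 2) and fibroblast lists (-0.068 without control 2), and endothelial ones ran from 0.13 to 0.47. For the other 33 named members, 446 of 451 refits kept their side of the threshold, and 5 refits of Sema4d, Plxna1 and Sema3g reached it. The cause of these changes was not tested. A mean under log2 5 was seen for 22 members, Reln among them.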
